A study of Mus musculus with 11 samples.

Results

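The cytosolic ribosomal protein genes were examined in RNA sequencing counts from the left ventricle of 11 mice. Members were the protein-coding genes with a standard symbol for a large-subunit (Rpl, Rplp) or small-subunit (Rps, Rpsa) protein of the cytosolic ribosome, which gave 76 of the 25006 genes in the files. Of these, 46 belonged to the large and 30 to the small subunit. The members were chosen by symbol, but the family was selected on its lower TMM-scaled CPM in the infarcted Vegfc-deficient hearts, which was already known. Differences between the genotypes and the interaction are therefore descriptions, and nothing is read from the counts of calls given beside them. The comparison of MI with naive Vegfc-deficient hearts uses the same infarcted libraries, so its adjusted p-values are not independent of that choice. All 76 members passed edgeR's filter on low counts, which left 14779 genes for the fit.

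Hearts came from naive mice or from mice 9 days after permanent ligation of the left anterior descending coronary artery, which causes a myocardial infarction (MI). According to the study's methods, the MI samples were infarcted tissue of the left ventricle. The naive samples were pieces of left ventricle of similar mass and position. The word hearts below stands for these pieces of tissue and not for the whole organ. Each condition held control mice and mice in which the gene of the lymphatic growth factor Vegfc was floxed and LysMCre was present. LysMCre expresses Cre recombinase from the Lyz2 locus, which is active in macrophages and neutrophils, so deletion was aimed at myeloid cells and not at the whole heart. There were 2 naive control libraries (M44, M45), 3 naive Vegfc-deficient (M34, M149, M150), 3 MI control (M006, M38, M40) and 3 MI Vegfc-deficient libraries (M35, M900, M913), each from 1 mouse. The genotype entered for the controls is Vegfc fl/fl, but the protocol text and the study's methods call them LysMCre mice, so it is not settled whether the controls carried the floxed alleles or Cre. The labels give no ages.

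Ribosomal proteins assemble with ribosomal RNA into the particles that translate every cytosolic mRNA, and most of them are needed in roughly equal numbers per ribosome. Their mRNAs belong to the TOP class, which begins with a cytosine and a run of pyrimidines at the extreme end and whose translation is regulated together through mTORC1. Heart muscle contains abundant ribosomes, and ribosome content is adjusted when the heart grows or loses mass. Mammalian ribosomal protein genes also have many processed pseudogenes, which are intronless copies that can be nearly identical to the coding sequence.

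Library totals ranged from 10824989 to 26782728 counts. Whole-tissue Vegfc lay between 21.9 and 45.5 CPM (counts relative to library size, scaled with edgeR's TMM factors, so that libraries of different depth can be compared) and its groups overlapped. Lyz2, where Cre is inserted, lay between 2120.5 and 5380 CPM in the controls and between 12.4 and 1392 CPM in 5 of the Vegfc-deficient hearts. The other one, the library labelled M149, had 4565 CPM, which goes against its label. Xist ranged from 188 to 403 CPM in MI and from 0.624 to 11.8 CPM in naive hearts, and Ddx3y, Eif2s3y, Kdm5d and Uty together from 0 to 1.84 CPM and from 152 to 195 CPM. Sex and MI therefore cannot be told apart in any comparison of MI with naive hearts. Cardiomyocyte markers (Myh6, Tnnt2, Tnni3, Actc1, Ryr2, Myl2) summed to 56711 CPM or more in each naive library.

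How far the coding sequence of each member is found in no other gene was examined first, because it limits how reads can be assigned to a single member. For every member, the coding sequence of its main transcript in GENCODE M21 (GRCm38) was cut into windows of 50 bases, and a window was called unique when no transcript of another annotated gene held it on either strand. In 29 members no coding window was unique, in 37 some but under 50% were, and in 10 at least 50% were. Among these 10 were Rps3, Rpl8, Rpl4, Rpl22, Rpl32, Rps9, Rps15 and Rps21. Members with no unique coding window can still hold unique 50-base windows over the whole transcript, for example 14.6% for Rpl10 and 69.8% for Rpl15. The share of coding windows therefore does not give all the sequence to which reads could be assigned. The first 50 coding bases illustrate the range and are shown for 2 members whose opening is found in no other annotated gene and for 2 whose opening is shared. The start codon is in capitals.
Rps3: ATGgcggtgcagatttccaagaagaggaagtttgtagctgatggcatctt
Rpl4: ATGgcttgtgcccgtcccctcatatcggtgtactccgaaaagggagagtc
Rpl23a: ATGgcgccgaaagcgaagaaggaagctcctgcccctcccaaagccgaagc
Rps6: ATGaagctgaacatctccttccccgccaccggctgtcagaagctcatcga

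The run from Rpl23a occurred in 7 other annotated genes and so did the run from Rps6. In GRCm38, Rps3 spans chr7:99477896-99483738 on the minus strand and Rpl4 chr9:64173375-64178666 on the plus strand. Rpl23a lies at chr11:78180932-78183584 and Rps6 at chr4:86854660-86857412, both on the minus strand.

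Mean counts per library ran from 10.8 for Rpl23a to 32146 for Rpl4. The 29 members with no unique coding window held 2.90% of all counts of the family and had a median mean count of 81.8. The 37 members with some unique windows held 48.2% and the 10 with at least 50% unique windows held 48.9%. Across the 76 members the share of unique windows and log2 mean CPM per kb of exon had a Spearman rho of 0.87 and a Pearson r of 0.74. This is a description over genes of one set of libraries that share their counting and annotation. Rpl13a, whose protein also acts in an interferon-gamma-activated inhibitor of translation, and Rpl41, the smallest member, lay apart from it. Rpl13a had 2.50% unique windows and 633.3 CPM per kb, and Rpl41 had none and 209.7 CPM per kb. Rps6, the ribosomal target of S6 kinase, was counted at 0.592 CPM per kb, the lowest level per length in the family, against 944.9 CPM per kb for Rpl4. How reads that fit several genes were treated is not given in the sources used here, so a low level of a member with few unique windows cannot be read as low expression. GENCODE M21 names 298 ribosomal protein pseudogenes, of which 9 have a row in the files.

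**Figure D1:**
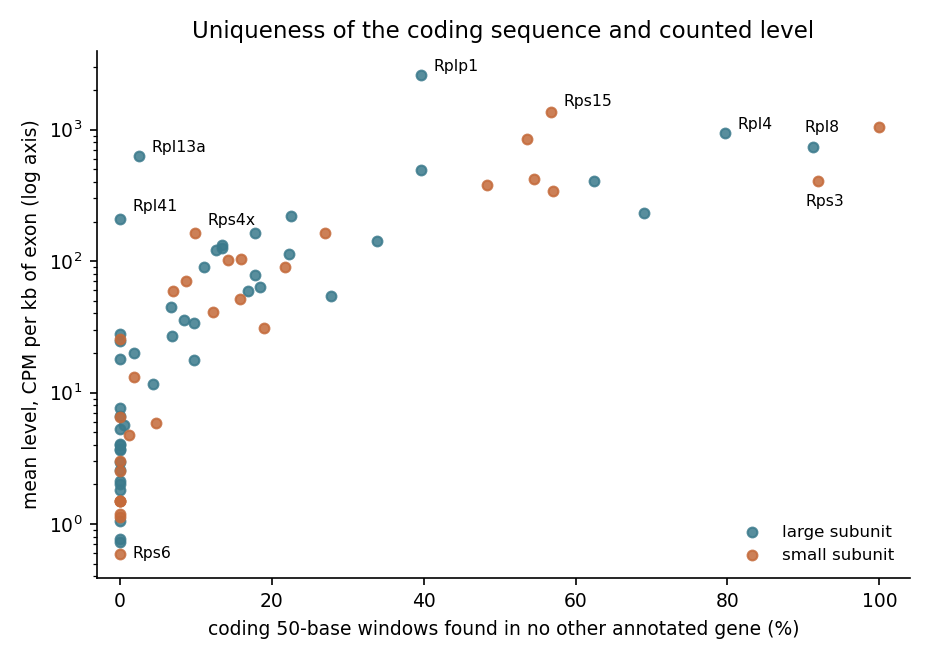
Mean level over 11 libraries (CPM per kb of exon, log axis) of each of the 76 genes against the percent of its coding 50-base windows found in no other annotated gene, coloured by subunit. The 29 genes at 0% lie mostly at the bottom and the 10 genes at 50% or more lie between 231.9 and 1367 CPM per kb, with Rpl41 and Rpl13a high at low uniqueness.

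Sequence around the annotated starts was searched for the pyrimidine run of TOP mRNAs. RefSeq promoter windows (GRCm38.p6) were found for 56 of the 76 members. A run of at least 8 consecutive C or T bases on the gene's strand that began within 10 bases of the RefSeq start was present in 20 of these 56 members (35.7%), against 10.7% of the other 26969 genes in the RefSeq table. It was present in 11 of 34 large-subunit and 9 of 22 small-subunit members with a window. In the 30 bases around the start of 6 of them, shown because they hold the run, the capitals mark the run where it lies inside the window.
Rpl15: gtgggagaaagCCTTCTTCCTTTCCTCTgg
Rpl27a: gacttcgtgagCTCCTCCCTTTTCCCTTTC
Rpl35: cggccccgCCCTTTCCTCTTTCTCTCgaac
Rps10: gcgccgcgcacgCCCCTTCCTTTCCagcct
Rps18: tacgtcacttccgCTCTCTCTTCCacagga
Rps6: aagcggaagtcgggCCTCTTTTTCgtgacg

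These windows lie at chr14:18270972-18271001 (Rpl15), chr7:109519180-109519209 (Rpl27a), chr2:39005117-39005146 (Rpl35), chr17:27635230-27635259 (Rps10), chr17:33955651-33955680 (Rps18) and chr4:86857353-86857382 (Rps6). Rpl27a is on the plus strand and the others are on the minus strand. A RefSeq start can lie several bases from the base at which transcription begins, and a member without a match is not thereby shown to lack the run. Between the MI genotypes the median log2 fold change was -0.58 for members with the run and -0.47 for those without it, a difference that was not tested.

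As a share of all counts, the family made up 1.84% ± 0.101 (SD, n = 2) in naive control hearts, 2.24% ± 0.0234 (SD, n = 3) in naive Vegfc-deficient hearts, 2.55% ± 0.177 (SD, n = 3) in MI control hearts and 1.63% ± 0.227 (SD, n = 3) in MI Vegfc-deficient hearts. After TMM scaling the members summed to 20227 and 23087 CPM in the naive controls (M44, M45) and to 26073, 29330 and 26315 CPM in naive hearts with Vegfc deficiency (M149, M150, M34). Following infarction the controls (M006, M38, M40) had 23215, 22610 and 20138 CPM and the Vegfc-deficient hearts (M35, M900, M913) 12082, 13952 and 16078 CPM. The 3 MI Vegfc-deficient libraries lay below the other 8, and the 3 naive Vegfc-deficient libraries, the library labelled M149 included, lay above the other 8. This order held after TMM scaling but not for the share of all counts, in which the MI controls (2.40% to 2.75%) lay above the naive Vegfc-deficient libraries (2.22% to 2.26%) and MI Vegfc-deficient M913 (1.86%) lay above naive control M44 (1.77%). In bulk tissue, fewer cells rich in these mRNAs and less of these mRNAs per cell cannot be told apart.

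**Figure D2:**
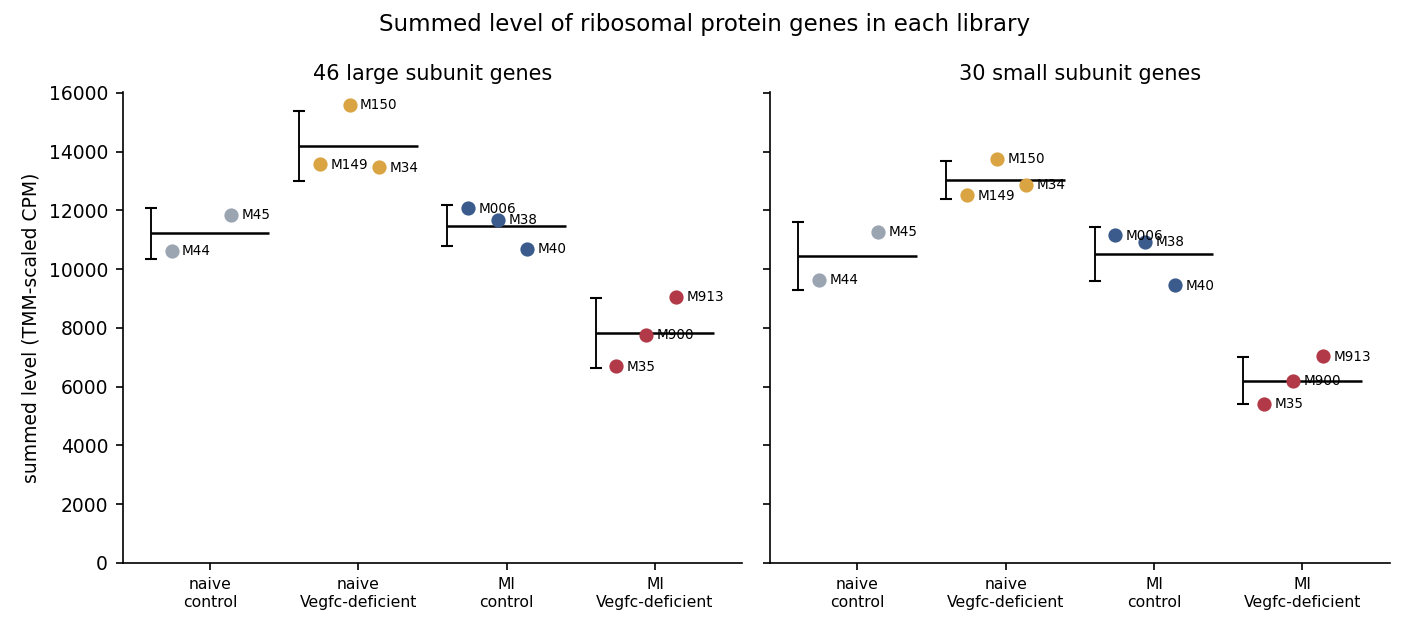
Summed level (TMM-scaled CPM, axis from 0) of the 46 large-subunit genes (left) and the 30 small-subunit genes (right) in each library, with the group mean (horizontal line) and SD (vertical bar, n = 2 or 3). In both panels the MI Vegfc-deficient libraries lie lowest and the naive Vegfc-deficient libraries highest.

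MI hearts were compared with naive hearts of the same genotype, and sex differs along with MI in these comparisons. Wording such as fell with MI names the contrast and not its cause. In control hearts few members were called. Of the 76 members, 2 rose and 1 fell at an adjusted p under 0.05, while 26.3% of all genes tested were called higher and 24.1% lower. The members' median log2 fold change was 0.0065, with 38 above and 38 below 0, and the median over all genes tested was 0.13. These values hold after TMM scaling, with factors of 0.829 (M45) and 0.875 (M44) in naive controls and 1.10 (M38) to 1.19 (M40) in MI controls. As a share of all counts, each MI control (2.40% to 2.75%) lay above both naive controls (1.77% and 1.91%). By DESeq2 2 members rose and 2 fell, while it called 7731 of the 14779 genes tested in either direction. The called members were Rpl30, Rps12 and Rpl27a, of which Rps12 was named after its value was seen.

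Rpl30 was at 14.9 and 14.6 CPM in the naive controls (M44, M45) and at 172, 8.76 and 109 CPM in the MI controls (M006, M38, M40), with a log2 fold change of 2.71 (SE 0.91, adjusted p = 0.0292). M38 lay below both naive libraries, so the groups overlapped. Rps12 had a log2 fold change of 0.50 (SE 0.17, adjusted p = 0.0321) and Rpl27a one of -0.41 (SE 0.15, adjusted p = 0.0409), and neither has a unique coding window. Leaving out naive control M44 or M45 or MI control M40 left 0 calls in the family, and leaving out MI control M38 or MI Vegfc-deficient M913 gave 5, the number without M913 changing through the shared estimate of spread and the scaling. Beyond the called genes, Rpl5 had a log2 fold change of 0.75 (SE 0.32, adjusted p = 0.0752), Rpl3 one of 0.74 (SE 0.54, adjusted p = 0.281), Rpl10a one of 0.70 (SE 0.28, adjusted p = 0.0629) and Rpl13 one of -0.58 (SE 0.22, adjusted p = 0.0506).

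In Vegfc-deficient hearts 50 of the 76 members fell with MI and 0 rose, while 27.7% of all genes tested were called lower and 30% higher. By DESeq2 52 members fell and 0 rose, while it called 8721 of the 14779 genes tested in either direction. Of the 76 members 52 had an unadjusted p under 0.05 in edgeR, as did 9280 of the 14779 genes, and nothing is read from that count. The median log2 fold change was -0.82, with 71 members below 0, against a median of 0.097 over all genes tested. Without the library labelled M149, 47 members fell, and the share of all genes called in that fit is not given. These members were shown lower in libraries that also led to the choice of the family. The count, and the adjusted p-values given below for single members in this comparison, are therefore not independent of that choice. Members are on average short, with a median exon length of 1805.5 bases against 4325.5 over all genes tested. With the trend of fold change on length removed 26 members fell and 1 rose in Vegfc-deficient hearts, with a median of -0.26. In control hearts 8 rose and 0 fell, with a median of 0.28. The shares of all genes above belong to the main fit and are not given for this setting, so nothing is read from its counts of calls.

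**Figure D3:**
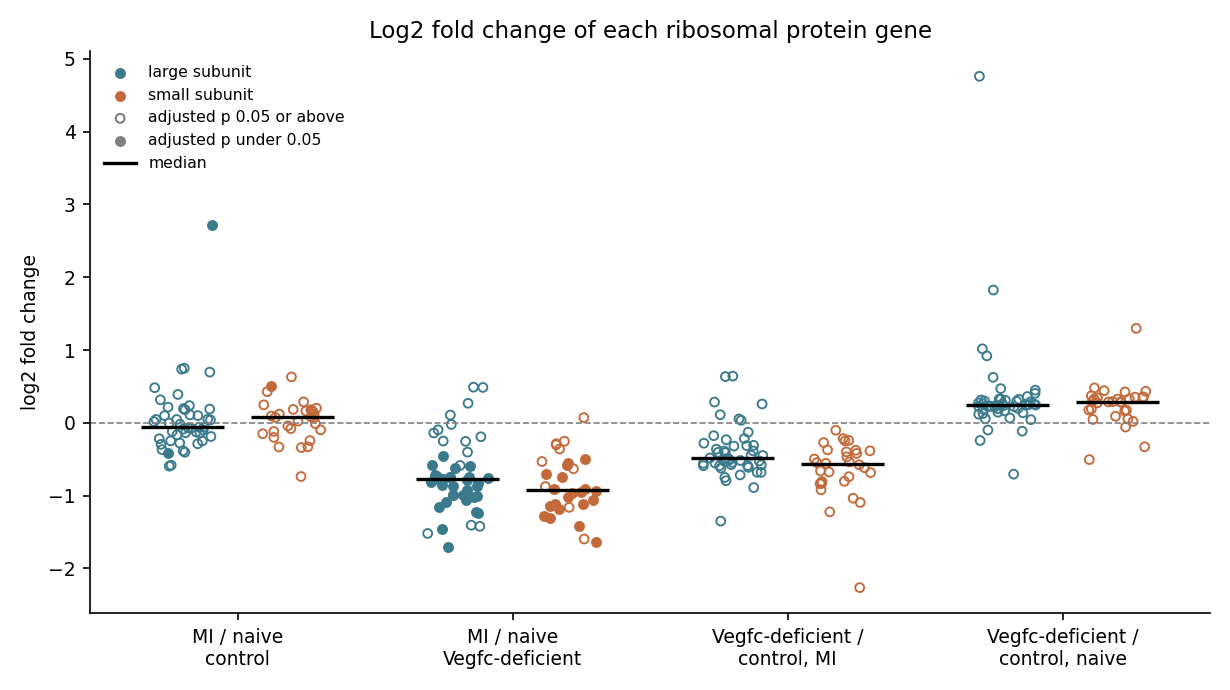
Log2 fold change of each member in 4 comparisons, large-subunit genes in blue and small-subunit genes in orange, filled where edgeR's adjusted p was under 0.05, with the median of each subunit as a black line. Medians for MI against naive were -0.06 and 0.08 in control hearts and -0.78 and -0.92 in Vegfc-deficient hearts (large and small subunit), and the point at 4.76 is Rpl30 between the naive groups.

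The 10 members whose coding sequence is mostly unique were grouped after the data were seen, and they use the same MI Vegfc-deficient libraries on which the family was selected, so their values are a description. In Vegfc-deficient hearts 10 of the 10 were called lower with MI, against 27.7% of all genes tested, with a median log2 fold change of -1.05. In control hearts 0 of the 10 was called by edgeR or had an unadjusted p under 0.05, with a median of -0.07. Of the 14779 genes tested, 8472 had such an unadjusted p there. In the other members the medians in Vegfc-deficient hearts were -0.91 where some windows were unique, with 29 of 37 lower, and -0.59 where none was, with 11 of 29 lower. Members with no unique window had low counts, which also limits what the test can call.

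Rps3, which forms part of the mRNA entry channel and also has roles in DNA repair, was at 1789 and 1967 CPM in the naive controls (M44, M45) and at 2227, 2457 and 2184 CPM in naive hearts with Vegfc deficiency (M149, M150, M34). Following infarction the controls (M006, M38, M40) had 2005, 2124 and 1822 CPM and the Vegfc-deficient hearts (M35, M900, M913) 924.4, 1132 and 1343 CPM. It fell with MI in Vegfc-deficient hearts by 1.01 on the log2 scale (SE 0.21, adjusted p = 0.00238).

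Rpl4, a core protein of the large subunit whose extension reaches the exit tunnel, had a smaller difference. It was at 1804 and 2007 CPM in the naive controls (M44, M45), at 2149, 2540 and 1985 CPM in naive hearts with Vegfc deficiency (M149, M150, M34), at 2208, 1907 and 1796 CPM in the MI controls (M006, M38, M40) and at 1370, 1566 and 1527 CPM in hearts with MI and Vegfc deficiency (M35, M900, M913). The MI Vegfc-deficient libraries again lay below all others, with a log2 fold change against naive of -0.58 (SE 0.20, adjusted p = 0.0318). That call was lost when any of M44, M45, M150, M35, M900 or M913 was left out. Rpl22, an RNA-binding protein that is dispensable for the basic function of the ribosome, fell by 1.09 (SE 0.20, adjusted p = 0.0012) on the same scale.

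The proteins of the P-stalk, which recruits the translation factors to the large subunit, were among the members that fell. Rplp1 had the highest level per length of the family, 2621 CPM per kb. It was at 1389 and 1552 CPM in the naive controls (M44, M45) and at 1700, 1572 and 1606 CPM in naive hearts with Vegfc deficiency (M149, M150, M34). Following infarction the controls (M006, M38, M40) had 1410, 1358 and 1351 CPM, a narrow range, and the Vegfc-deficient hearts (M35, M900, M913) 604.3, 746.0 and 1097 CPM. Log2 fold changes with MI in Vegfc-deficient hearts were -0.995 for Rplp1 (SE 0.23, adjusted p = 0.0045), -1.24 for Rplp2 (SE 0.18, adjusted p = 2.6e-04) and -0.62 for Rplp0 (SE 0.21, adjusted p = 0.0268). With the length trend removed the value for Rplp1 turned above 0 and Rplp0 was not called, and Rplp0 also missed the threshold without M34, M150, M35 or M900. Rpl12, at the base of the stalk, was not called and has no unique coding window.

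Rpl11 and Rpl5 bind the small ribosomal RNA of the large subunit together, and the particle they form restrains Mdm2 when ribosome assembly is disturbed. Rpl11 had a log2 fold change with MI of -1.0036 in Vegfc-deficient hearts (SE 0.21, adjusted p = 0.00217). Rpl5 was at 2.68 and 2.99 CPM in the naive controls (M44, M45), at 4.02, 3.03 and 3.50 CPM in naive hearts with Vegfc deficiency (M149, M150, M34), at 6.14, 3.48 and 4.73 CPM in the MI controls (M006, M38, M40) and at 6.11, 4.95 and 3.81 CPM in hearts with MI and Vegfc deficiency (M35, M900, M913). The naive Vegfc-deficient libraries lay above both naive controls, while the genotypes overlapped after MI, and the log2 fold change with MI was 0.49 in Vegfc-deficient hearts (SE 0.28, adjusted p = 0.158). Rpl10, which joins the large subunit late in its maturation, and Rpl3, next to the peptidyl transferase centre, had log2 fold changes of 0.27 (SE 0.29, adjusted p = 0.451) and 0.11 (SE 0.48, adjusted p = 0.86). For Rpl3, M149 had 7.75 CPM while the other 10 libraries lay between 28.1 and 56.9 CPM, and without M149 the log2 fold change was -0.36 (adjusted p = 0.127). Rpl5 and Rpl10 have no unique coding window and Rpl3 has 4.31%.

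Rpl13a was at 1166 and 1232 CPM in the naive controls (M44, M45) and at 1500, 1809 and 1596 CPM in naive hearts with Vegfc deficiency (M149, M150, M34). Following infarction the controls (M006, M38, M40) had 1569, 1692 and 1450 CPM and the Vegfc-deficient hearts (M35, M900, M913) 688.4, 871.4 and 1153 CPM. Its log2 fold change with MI in Vegfc-deficient hearts was -0.85 (SE 0.22, adjusted p = 0.00808). Rpl41 was at 286.3, 321.5 and 309.9 CPM in the MI controls (M006, M38, M40) and at 128.7, 150.2 and 216.2 CPM in hearts with MI and Vegfc deficiency (M35, M900, M913), and fell by 0.77 with MI in Vegfc-deficient hearts on the log2 scale (SE 0.19, adjusted p = 0.00594). Rpl39, a short protein of the exit tunnel whose gene is on chromosome X, fell by 0.46 (SE 0.16, adjusted p = 0.0313). With the length trend removed the values for Rpl41 and Rpl39 turned above 0, and Rpl39 missed the threshold when any of 7 single libraries was left out. Rpl38, which supports translation of Hox mRNAs in the embryo, fell by 1.46 (SE 0.57, adjusted p = 0.0472) from a low level of 1.71 to 3.53 CPM in the naive group to 0.881 to 0.940 CPM, a call lost in 7 of the 11 fits that left out a library.

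Among small-subunit members, Rps14, whose loss causes the anaemia of a myelodysplastic syndrome, was at 795.9 and 949.0 CPM in the naive controls (M44, M45) and at 1120, 1251 and 1278 CPM in naive hearts with Vegfc deficiency (M149, M150, M34). Following infarction the controls (M006, M38, M40) had 1013, 1267 and 913.4 CPM and the Vegfc-deficient hearts (M35, M900, M913) 379.6, 486.7 and 628.4 CPM. The MI Vegfc-deficient libraries were the lowest of the 11, and the log2 fold change against naive was -1.29 (SE 0.23, adjusted p = 9.4e-04). Rps19, the gene most often mutated in Diamond-Blackfan anaemia, was at 129.9, 122.0 and 163.4 CPM in naive hearts with Vegfc deficiency (M149, M150, M34) and at 54.7, 69.0 and 9.98 CPM in hearts with MI and Vegfc deficiency (M35, M900, M913). Its log2 fold change was -1.64 (SE 0.53, adjusted p = 0.0224), and it missed the threshold without M34. Rps28, a small protein near the mRNA exit, fell by 1.138 (SE 0.23, adjusted p = 0.00188), Rpsa, also described as a laminin receptor, by 0.74 (SE 0.18, adjusted p = 0.0055), Rps27a, made as a fusion with ubiquitin, by 0.59 (SE 0.22, adjusted p = 0.0417) and the X-linked Rps4x by 0.50 (SE 0.13, adjusted p = 0.00781). The Rps27a call was lost in 9 of the 11 fits that left out a library, and the Rps4x value turned above 0 with the length trend removed.

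The largest decrease in Vegfc-deficient hearts belonged to Rpl36, at -1.70 (SE 0.30, adjusted p = 9.2e-04). It was at 16.3, 13.2 and 10.99 CPM in naive M149, M150 and M34 and at 4.41, 3.40 and 4.597 CPM in MI M35, M900 and M913, and it was not called with the length trend removed. Rps2 (-1.60, SE 1.17) and Rpl26 (-1.52, SE 1.202) followed among the lowest values but were not called. Rps6, Rps23, a protein of the decoding centre, and Rps29 were not called either. All of these last 3 have no unique coding window and were counted at 0.362 to 2.17 CPM, near the floor of 3 counts, which was 0.112 to 0.277 CPM before TMM scaling and covers counting error only.

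Between the genotypes after MI, 69 of 76 members were lower in Vegfc-deficient hearts, with a median log2 fold change of -0.51, against -0.0073 over all genes tested. No member passed edgeR's test, for which 0% of all genes tested were called. Of the 76 members 41 had an unadjusted p under 0.05, as did 1173 of 14779 genes, and DESeq2 called 17 members, each lower, among 62 genes in all. In 45 members all 3 Vegfc-deficient libraries lay below all 3 controls and in 0 above, while 6.12% of all genes tested were separated lower and 5.99% higher. Since this contrast led to the choice of the family, nothing is read from these counts. The 30 small-subunit members were all on the lower side, with a median of -0.57, and 39 of 46 large-subunit members were, with a median of -0.49. The lowest values were -2.27 for Rps19 (SE 0.54), -1.35 for Rpl38 (SE 0.55), -1.22 for Rps18 (SE 0.34), -1.10 for Rps14 (SE 0.23) and -1.04 for Rps28 (SE 0.23). The highest were 0.64 for Rpl30 (SE 0.72) and 0.63 for Rpl29 (SE 1.41), neither larger than its error. With the length trend removed the family's median was -0.35.

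The order of libraries within the MI Vegfc-deficient group was M35 lowest in 38 of the 76 members among the 6 MI libraries, M900 in 12 and M913 in 12. M006 was the highest of the 6 in 50 members. The shares of all genes tested with such ranks are not given, so nothing is read from these counts. Among the MI libraries M35 also had the highest sum of cardiomyocyte markers (21284 CPM) and the lowest sums of macrophage (1861 CPM) and proliferation markers (105.3 CPM). Whether any of these sums bears on the order of libraries was not tested.

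Between the naive groups the difference had the opposite sign. In naive Vegfc-deficient hearts 69 of 76 members were higher, with a median log2 fold change of 0.26 against 0.014 over all genes tested. No member passed edgeR's test, for which 0% of all genes tested were called. Of the 76 members 2 had an unadjusted p under 0.05, as did 499 of 14779 genes, and DESeq2 called 1 member among 14 genes in all. In 34 members all 3 Vegfc-deficient libraries lay above both controls and in 2, Rpl23a and Rps19, below, while 12.3% of all genes tested were separated higher and 10.1% lower. Without the library labelled M149 the median was 0.28, and 43 members were separated higher and 4 lower, against 24.6% and 21% of all genes tested. The highest log2 fold changes were 4.76 for Rpl30, 1.82 for Rpl26, 1.30 for Rps2, 1.02 for Rpl36 and 0.92 for Rpl34, and the lowest were -0.71 for Rpl23a and -0.51 for Rps19. Rpl30 had 421.9, 434.3 and 343.9 CPM in the Vegfc-deficient hearts M149, M150 and M34, all far above its 14.9 and 14.6 CPM in the controls.

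The interaction, the genotype difference after MI minus that in naive hearts, had a median of -0.77 with 72 members below 0. It was called for 0 members by edgeR, for which 0% of all genes tested were called, with 43 of 76 members and 1226 of 14779 genes at an unadjusted p under 0.05, and for 11 members by DESeq2 among 58 genes. As for the genotype comparisons, nothing is read from these counts.

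**Figure D4:**
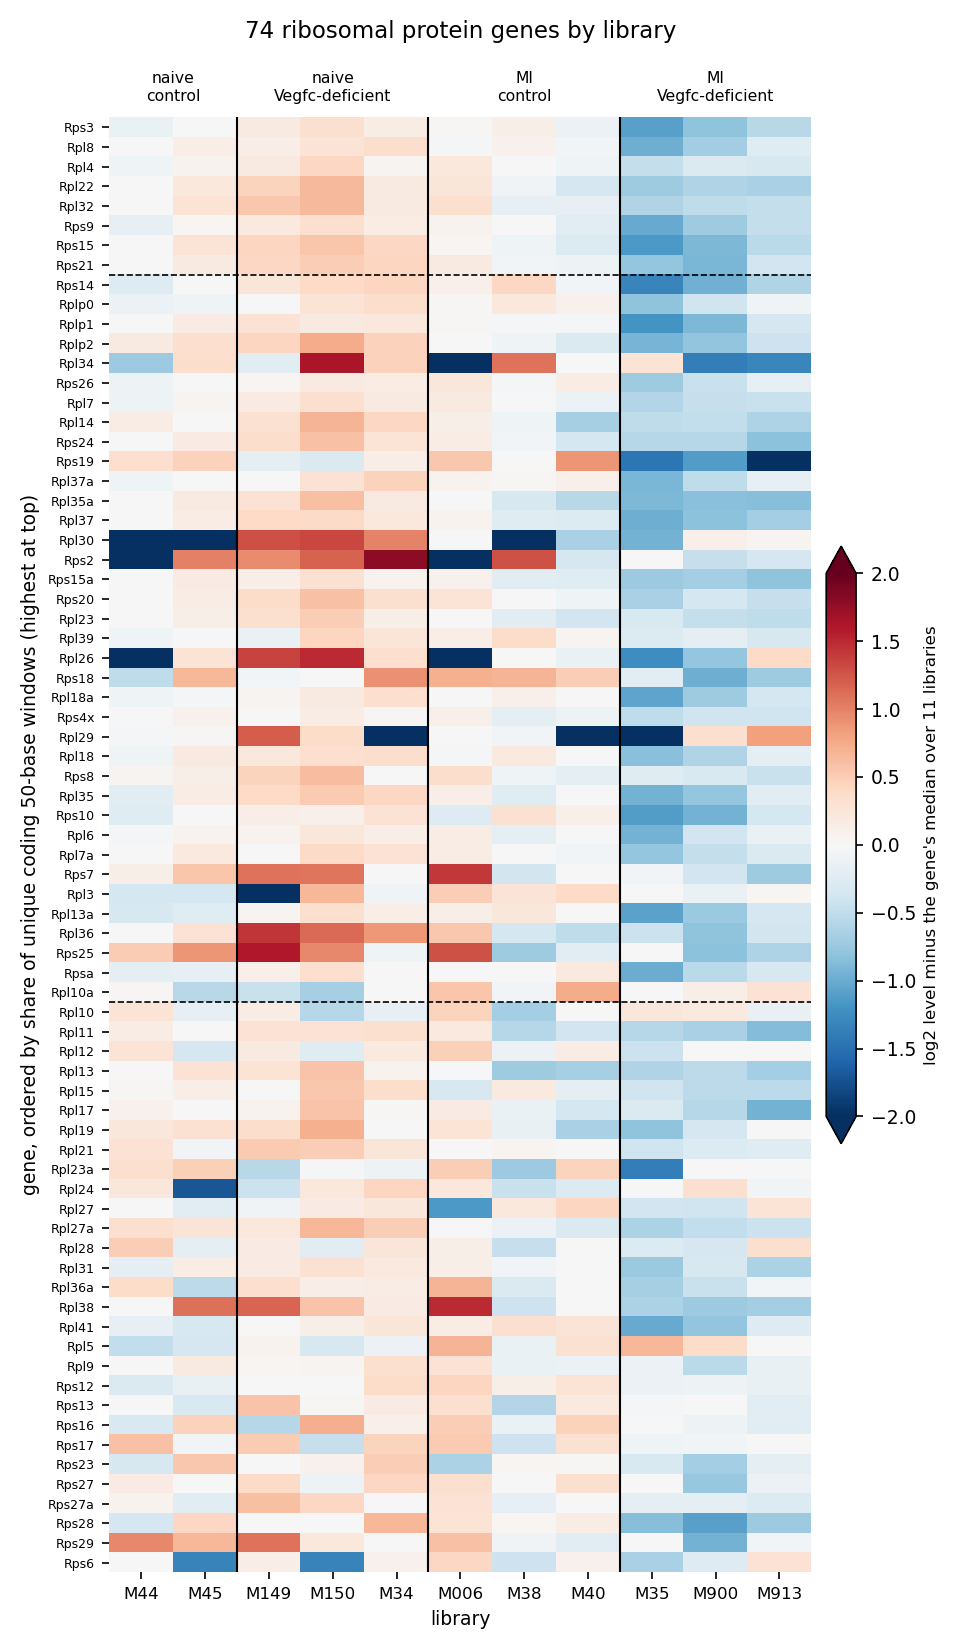
Log2 level of 74 of the 76 members in each library minus the member's median over the 11 libraries (colours end at -2 and 2), with members ordered by their share of unique coding 50-base windows and dashed lines at 50% and at 0%. Most rows are blue in the 3 MI Vegfc-deficient columns and pale red in the naive Vegfc-deficient columns, and dark blue cells mark single libraries far below the rest.

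In 6 members a library lay more than 8-fold below the member's own median over the 11 libraries. These were Rpl26, Rpl29, Rpl30, Rpl34, Rps19 and Rps2, in 12 combinations of member and library. Rps2, which lines the mRNA entry channel, was at 8.83 CPM in naive control M44 and 6.08 CPM in MI control M006 and between 98.4 and 466.5 CPM in the other 9 libraries. Rpl26 was low in the same pair, at 6.42 and 3.01 CPM, and between 67.0 and 446.6 CPM elsewhere. Rpl29 was at 0.977 CPM in naive Vegfc-deficient M34, 0.330 CPM in MI control M40 and 0.176 CPM in MI Vegfc-deficient M35, and between 19.9 and 48.2 CPM in the other 8. Rpl34 was at 9.21 CPM in MI control M006 against a median of 127.5 CPM. The 6 members were 7.89% of the whole family, members of any level included. Of the 7409 genes tested with a median at least as high as the lowest of these, 2.52% had such a library. That cut on level was set by these members and not applied to the family, so the shares are not directly comparable. They have 9.74% to 27.8% unique coding windows and 2 to 14 named pseudogenes each. The low libraries belonged to all 4 groups. For Rpl30 they included both naive controls. Without these 6 members 49 of 70 fell with MI in Vegfc-deficient hearts, against 27.7% of all genes tested.

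Genes outside the symbol rule that encode ribosomal proteins or sit on the ribosome were read beside the family. Rack1, a scaffold on the small subunit, was at 1625 and 1804 CPM in the naive controls (M44, M45), at 1843, 2133 and 2034 CPM in naive hearts with Vegfc deficiency (M149, M150, M34), at 2015, 2345 and 2147 CPM in the MI controls (M006, M38, M40) and at 939.0, 1384 and 1613 CPM in hearts with MI and Vegfc deficiency (M35, M900, M913). Its log2 fold change with MI in Vegfc-deficient hearts was -0.61 (adjusted p = 0.0457). Of the 4 genes in this list, 3 fell with MI in Vegfc-deficient hearts and 0 were called in control hearts, with medians of -0.86 and 0.24. Of the paralogs, 8 of 9 were tested, 7 fell with MI in Vegfc-deficient hearts and 4 in control hearts. Of all genes tested, 26.3% were called higher and 24.1% lower in control hearts and 30% higher and 27.7% lower in Vegfc-deficient hearts. Rpl3l, the heart and skeletal muscle paralog of Rpl3, ranged from 463.2 to 669.8 CPM over the 5 naive hearts and from 6.05 to 63.2 CPM over the 6 infarcted hearts. It fell by 3.69 in control and by 3.92 in Vegfc-deficient hearts on the log2 scale (adjusted p = 0.00385 and 0.00174). All 6 cardiomyocyte markers also fell in both genotypes.

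Elongation factors and other TOP mRNAs had a median log2 fold change with MI of 0.25 in control and -0.28 in Vegfc-deficient hearts. In control hearts 2 of 11 genes were called higher and 1 lower, against 26.3% and 24.1% of all genes tested. In Vegfc-deficient hearts 1 was called higher and 5 lower, against 30% and 27.7%. Eef1a1, which delivers aminoacyl-tRNA to the ribosome, was at 1800 and 1939 CPM in naive controls and at 3296, 3059 and 2993 CPM in the MI controls (M006, M38, M40), a log2 fold change of 0.74 (adjusted p = 0.0298). In Vegfc-deficient hearts it was at 2028 to 2168 CPM before and 1721 to 2427 CPM after MI, with a log2 fold change of 0.05 (adjusted p = 0.864). Pabpc1, the poly(A)-binding protein, rose in both genotypes, by 1.64 and 1.59.

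Other large protein assemblies were compared as lists, for which the shares of all genes tested were, as above, 26.3% higher and 24.1% lower in control hearts and 30% higher and 27.7% lower in Vegfc-deficient hearts. Initiation factors had 1 gene higher and 13 lower of 35 with MI in control hearts and 1 higher and 17 lower in Vegfc-deficient hearts, with medians of -0.29 and -0.51. Ribosome biogenesis genes had 1 higher and 14 lower of 33 in control hearts and 3 higher and 15 lower in Vegfc-deficient hearts, with medians of -0.21 and -0.24. Mitochondrial ribosomal protein genes fell in 76 of 78 in control and 78 of 78 in Vegfc-deficient hearts, with medians of -1.45 and -1.73. Proteasome subunits fell in 26 and 31 of 38, with medians of -0.62 and -0.86, and nuclear-encoded subunits of complexes I, IV and V fell in 63 and 64 of 67, with medians of -2.44 and -2.65. Between the MI genotypes the medians were -0.17 for mitochondrial ribosomal proteins, -0.15 for proteasome subunits, -0.11 for complex I, IV and V subunits, -0.10 for initiation factors, 0.07 for ribosome biogenesis, -0.26 for elongation factors and other TOP mRNAs and -0.57 for the 4 other ribosomal proteins. Mitochondrial ribosomal proteins and oxidative subunits fell in both genotypes, while the cytosolic family fell in Vegfc-deficient hearts and had 3 calls in control hearts. The family was selected on its low level in the MI Vegfc-deficient libraries, so its fall there is not independent of that choice. The difference between lists was not tested.

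**Figure D5:**
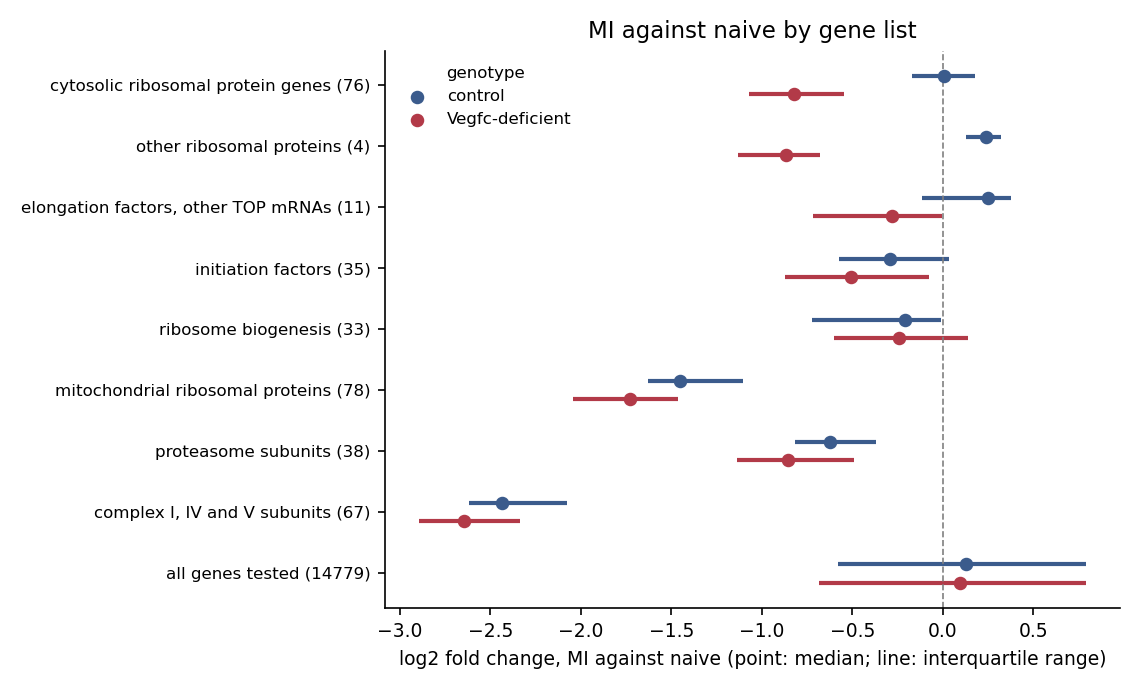
Median log2 fold change with MI (points) and the interquartile range (lines) for each gene list, in control (blue) and Vegfc-deficient hearts (red), with the number of genes tested in brackets. The cytosolic ribosomal protein genes lie at 0.0065 in control and -0.82 in Vegfc-deficient hearts, and the mitochondrial ribosomal proteins at -1.45 and -1.73.

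Cell type markers moved with MI and partly with genotype. The sum of 6 cardiomyocyte markers was 2148 to 10718 CPM in MI controls and 4735 to 21284 CPM in MI Vegfc-deficient hearts, and that of 6 fibroblast markers 28186 to 37931 CPM and 35653 to 45144 CPM, against 4422 to 6132 CPM in naive hearts. Macrophage markers (6 genes) summed to 2561 to 4470 CPM in MI controls and 1861 to 3853 CPM in MI Vegfc-deficient hearts, that of 4 endothelial markers 315.8 to 618.3 CPM and 521.5 to 639.8 CPM, and that of 4 proliferation markers 161.5 to 267.1 CPM and 105.3 to 262.7 CPM. Neutrophil markers summed to 46.2 to 342.4 CPM and 35.5 to 184.8 CPM, B cell markers to 10.3 to 15.3 CPM and 14.4 to 28.5 CPM, and T cell markers to 11.4 to 126.1 CPM and 14.9 to 22.4 CPM in the same groups. The 5 red cell markers summed to 1092 and 2436 CPM in naive controls and 1893 to 4383 CPM in naive Vegfc-deficient hearts. They summed to 803.7 to 1375 CPM in MI controls and, lowest of the groups, to 308.9 to 653.6 CPM in MI Vegfc-deficient hearts. Within that last group the order differed from that of the family, as M35 had the highest red cell sum and the lowest family sum. All 5 red cell markers had log2 fold changes with MI below 0 in both genotypes, with medians of -0.74 in control and -3.02 in Vegfc-deficient hearts. Called lower were 0 of 5 in control and 5 of 5 in Vegfc-deficient hearts. Beside these and the next calls, 26.3% of all genes tested were called higher and 24.1% lower in control hearts. The shares in Vegfc-deficient hearts were 30% and 27.7%. With MI in control and in Vegfc-deficient hearts, 4 and 5 of 6 fibroblast, 3 and 3 of 6 macrophage, 0 and 1 of 4 neutrophil, 5 and 1 of 5 T cell, 0 and 0 of 4 B cell and 4 and 4 of 4 proliferation markers rose, and of 4 endothelial markers 1 fell in control hearts and 1 rose and 1 fell in Vegfc-deficient hearts. No marker was at 0 counts except Cd3e in both naive controls, and the part of any cell type in the members' values was not tested.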

How the data were processed

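Stranded mRNA libraries were made from left ventricular tissue of 11 mice (infarcted tissue in the MI mice), 1 library per mouse. For each library the authors deposited a table of Ensembl gene identifiers and their raw counts, not normalized and without a header. The submitters' processing notes name cutadapt 1.13, STAR, HTSeq 0.6.1p1, DESeq2 1.14.1 and mm10. The annotation, the strand setting and the handling of reads that fit several genes are not given in the sources used here. Symbols came from GENCODE M21, where 24991 of 25006 identifiers were found. Genes encoded in the mitochondrial genome had 0 counts.

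Groups were taken from the sample labels. Counts were analysed in R 4.3.3 with edgeR 4.0.16 (filterByExpr, TMM factors, 1 quasi-likelihood fit of 4 group means over all 11 libraries, Benjamini-Hochberg adjustment over 14779 genes, threshold 0.05). All adjusted p-values in the text come from it. SE is the absolute log2 fold change divided by the square root of the F statistic. Alternatives were DESeq2 1.42.0 (size factors and Wald test), scaling without ribosomal protein, haemoglobin and mitochondrially encoded genes, DESeq2 size factors, other filters, removal of the length trend, a fit of only the groups compared, and omission of each library in turn. P-values measure the spread between single mice. The test was checked on simulated data.

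The members, lists and comparisons were chosen with earlier results of these data known. Members named in the text were those with a described role (among them the P-stalk, Rpl5, Rpl11, Rpl3, Rpl4 and Rps6) and the 5 highest and 5 lowest in each comparison. Rps12, the members with mostly unique coding sequence, and those whose start windows are shown, were named after their values were seen. Lists compared were paralogs, other ribosomal proteins, elongation factors and other TOP mRNAs, initiation factors, ribosome biogenesis, mitochondrial ribosomal proteins, proteasome, complexes I, IV and V, and cell type markers. Coding windows and starts used GRCm38 sequences of GENCODE M21, and promoter windows came from RefSeq. Some members and comparator genes entered the fits and counts but are not reported here by name.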

Additional observations from a re-analysis of the deposited data

How the results depend on the processing

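The family medians for MI against naive in Vegfc-deficient hearts, for both genotype comparisons and for the interaction kept their sign under each alternative run. Where the MI Vegfc-deficient libraries enter, the runs reuse libraries on which the family was selected. The kept sign is a description there and no independent test. With the trend on transcript length removed, calls went to 8 and the median to 0.28 for MI against naive in control hearts, to 27 and -0.26 in Vegfc-deficient hearts, and the median to -0.35 between the MI genotypes and -0.57 for the interaction. The same setting turned Rpl39 (0.18), Rpl41 (0.038), Rplp1 (0.45) and Rps4x (0.012) above 0 for MI against naive in Vegfc-deficient hearts and Rpl19 above 0 in control hearts (0.12). The DESeq2 Wald test called 17 members between the MI genotypes, 1 between the naive genotypes and 11 for the interaction, and the naive groups fitted alone gave 1. The cause of these changes was not tested. Except for DESeq2, the share of all genes called is not given for these settings or for the fits that left out a library. Nothing is read from their counts of calls.

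Leaving out each library (with 1 naive control left, that library is assumed to vary like the other groups) gave 0 to 5 calls and a median of -0.089 to 0.027 for MI against naive in control hearts, and 42 to 52 calls and a median of -0.95 to -0.73 in Vegfc-deficient hearts. It gave 0 to 1 calls between the naive genotypes and for the interaction, whose median ran from -0.85 to -0.63 and whose large-minus-small difference ran from 0.0055 to 0.26. Both interaction values nearest 0 came without MI control M006. Rpl3 ranged from -0.36 without M149 to 0.74 without M150 and Rps6 to -0.27 without M150 and -0.28 without M913 for MI against naive in Vegfc-deficient hearts.

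Among the 17 members without a named pseudogene, 0 were called in control hearts, the median was -0.94 in Vegfc-deficient hearts and -0.90 for the interaction, and the large-minus-small difference was 0.35, 0.29 between the MI genotypes and 0.34 for the interaction. Subsets chosen after the data were seen were the 10 members with at least 50% unique windows (0 calls in control hearts, 10 and a median of -1.05 in Vegfc-deficient hearts, -0.65 between the MI genotypes, -0.95 for the interaction) and the 47 with any unique window (1 call, -0.96 in Vegfc-deficient hearts, -0.90 for the interaction). Beside these calls, 26.3% of all genes tested were called higher and 24.1% lower in control hearts, and 30% and 27.7% in Vegfc-deficient hearts. The subset values that use the MI Vegfc-deficient libraries are descriptions, since the family was selected on those libraries. Members with under 100 counts per library could not show small changes. No paired analysis was possible because the animals of different groups share no replicate number.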
